A study of Homo sapiens with 9 samples.

Results

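Ribosome biogenesis factors and RNA polymerase I subunits were examined as a module of 49 genes in RNA-seq counts of MCF10A, a non-tumorigenic human mammary epithelial cell line. The genes were taken by symbol from a list of nucleolar factors, and all 49 were among the 25369 named genes of the count matrix and among the 16117 that passed the filter on low counts. The lowest count of any of them in a library was 10, for PPAN. Cells had been transduced with a retroviral pBABEpuro vector carrying HER2-CA, a constitutively active form (V659E) of the receptor tyrosine kinase encoded by ERBB2, or with the empty vector (EV). They were transfected with siRNA against YAP and TAZ, the transcriptional co-activators encoded by YAP1 and WWTR1, or with a control siRNA. They were replated after 24 h onto a polyacrylamide hydrogel of 0.5 kPa or onto plastic, and harvested 24 h later. HER2 cells gave 2 libraries with YAP/TAZ siRNA on plastic (siRNA 1 and siRNA 3), 1 with control siRNA on the hydrogel and 1 with control siRNA on plastic. EV cells gave 2 libraries with YAP/TAZ siRNA on plastic (siRNA 1 and siRNA 3), 1 with control siRNA on the hydrogel and 2 with control siRNA on plastic (A and B). All cells carried the pBABEpuro backbone. YAP/TAZ siRNA on the hydrogel was not analysed here.

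Ribosomes are assembled in the nucleolus. RNA polymerase I transcribes the precursor of the large ribosomal RNAs, small nucleolar ribonucleoproteins (snoRNPs) guide its chemical modification, and large assemblies fold and cut it into the 40S and 60S subunits. Many of these factors are transcribed in proportion to growth and are known targets of MYC, a transcription factor that binds the E-box as a dimer with MAX. MXD proteins bind MAX as well and oppose MYC.

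Total counts ran from 24425556 in the HER2 control to 78945981 in EV cells with siRNA 3. Levels are TMM-scaled CPM (counts relative to library size). Log2 levels carry a prior count of 2. The labels were checked against the targeted genes. ERBB2 had 614 CPM in the HER2 control, against 60.5 and 57.7 CPM in the EV controls. YAP1 had 9.75 and 18.9 CPM in HER2 cells with siRNA 1 and siRNA 3, against 115 CPM in the HER2 control, and 14.3 and 14.3 CPM in EV cells with those reagents, against 83.9 and 85.1 CPM in the EV controls. WWTR1 had 28.97 and 48.2 CPM with siRNA 1 and siRNA 3, against 170 CPM in the control, in HER2 cells, and 14.0 and 21.6 CPM, against 77.4 and 76.9 CPM, in EV cells. The epithelial markers CDH1, KRT14, KRT17 and TP63 were each at 4.81 CPM or less in every HER2 library, while KRT5, LAMB3, ITGB4, EPCAM, KRT8 and KRT18 were each at 19.6 CPM or more there. The sum of 6 basal mammary markers was 446 to 1047 CPM in HER2 and 4462 to 9905 CPM in EV libraries, and that of 5 luminal or general epithelial markers 211 to 297 CPM and 425 to 1694 CPM. Over 6 mesenchymal markers, mostly VIM, it was 1844 to 2981 CPM in HER2 and 764 to 2199 CPM in EV libraries. Over 3 leukocyte markers it was 19.7 to 44.1 CPM and 11.8 to 48.1 CPM, nearly all from CD68, with CD3E at 0 in all libraries and PTPRC at 0 in all but 1. Over 3 endothelial markers, mostly PECAM1, it was 7.92 to 36.5 CPM in HER2 and 1.49 to 6.03 CPM in EV libraries. The basal, luminal or general epithelial and endothelial sums did not overlap between the lines, while the mesenchymal and leukocyte sums did. Markers also varied within a line, with KRT14 in EV cells at 636 CPM with siRNA 1 and 80.1 CPM with siRNA 3. The part of these markers in the differences between lines was not tested.

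Of the 14 comparisons, 13 were tested with edgeR's quasi-likelihood test in a fit of 6 group means, in which groups with 1 library are assumed to vary like the others. This group-means fit left 3 residual degrees of freedom and called 0 of the 49 genes at an adjusted p of 0.05. It called 1.03% of all genes between HER2 and EV plastic controls, 1.51% between the lines on the hydrogel, 5.84% between them with siRNA, and 0 in the other comparisons. A second fit, the reagent fit, added a term for siRNA 3 against siRNA 1 that both lines share (both carry reagents numbered alike). It left 2 residual degrees of freedom, and the biological coefficient of variation was 0.209 with this term and 0.408 without it. Residual spread then comes from EV controls A and B, and from the reagent difference being unequal in HER2 and EV cells. With A or B left out, only the unequal reagent difference remains, with fewer residual degrees of freedom for all genes. For the 49 genes and the further gene groups, counts of calls with either control left out are given beside the counts with both. Counts at an unadjusted p under 0.05 are given without the share of all genes, so they do not set the module apart from other genes. Nothing in the labels says that replicates came from separate cultures, so p-values measure the spread between these libraries, which may be technical. In bulk RNA, fewer cells that express a gene and less RNA per cell cannot be told apart.

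The module was low in 4 of the libraries. At the median gene the level relative to the mean of the EV controls was 53.3% in EV cells with siRNA 1, 42.0% in EV cells with siRNA 3 and 52.1% in EV cells on the hydrogel. In HER2 cells it was 101% with siRNA 1, 56.7% with siRNA 3, 108% on the hydrogel and 112% in the control. The median of all genes tested lay within -0.13 and 0.04 on the log2 scale in each of these libraries. Of the 49 genes, 32 had their lowest level in EV cells with siRNA 3, and 21 had their highest in the HER2 control. The share of all genes with their lowest or highest level there was not counted, so these counts do not set the module apart. The summed level in HER2 cells was 10382 CPM with siRNA 1 and 5433 CPM with siRNA 3, 10267 CPM on the hydrogel, and 13127 CPM in the control. In EV cells it was 5053 CPM with siRNA 1, 3468 CPM with siRNA 3 and 5226 CPM on the hydrogel, against 9137 and 9447 CPM in the controls.

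**Figure D1:**
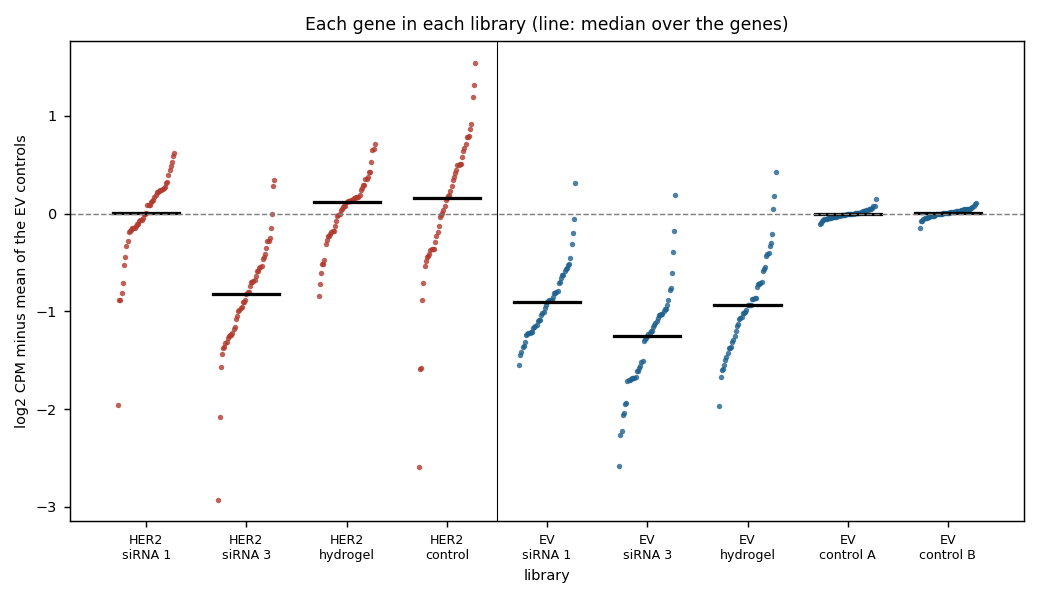
Each point is 1 of the 49 genes in 1 library, as log2 CPM minus the mean log2 CPM of the EV controls, with HER2 libraries in red and EV libraries in blue; black lines are medians over the genes. The EV medians are -0.91 for siRNA 1, -1.25 for siRNA 3 and -0.94 for the hydrogel, and the median is -0.82 in HER2 cells with siRNA 3, while the other HER2 libraries have medians between 0.01 and 0.16.

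Levels within the module differed widely. Per kilobase of the longest coding transcript, the EV controls averaged 684 CPM per kb for NPM1, the nucleolar chaperone nucleophosmin, and 227 CPM per kb for NOP10, a small protein of box H/ACA snoRNPs. POLR1A, the largest subunit of RNA polymerase I, averaged 5.54 CPM per kb on the same scale, and PPAN, a 60S assembly factor, 1.69 CPM per kb. PPAN shares its locus with a read-through transcript, so its counts are uncertain.

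**Figure D2:**
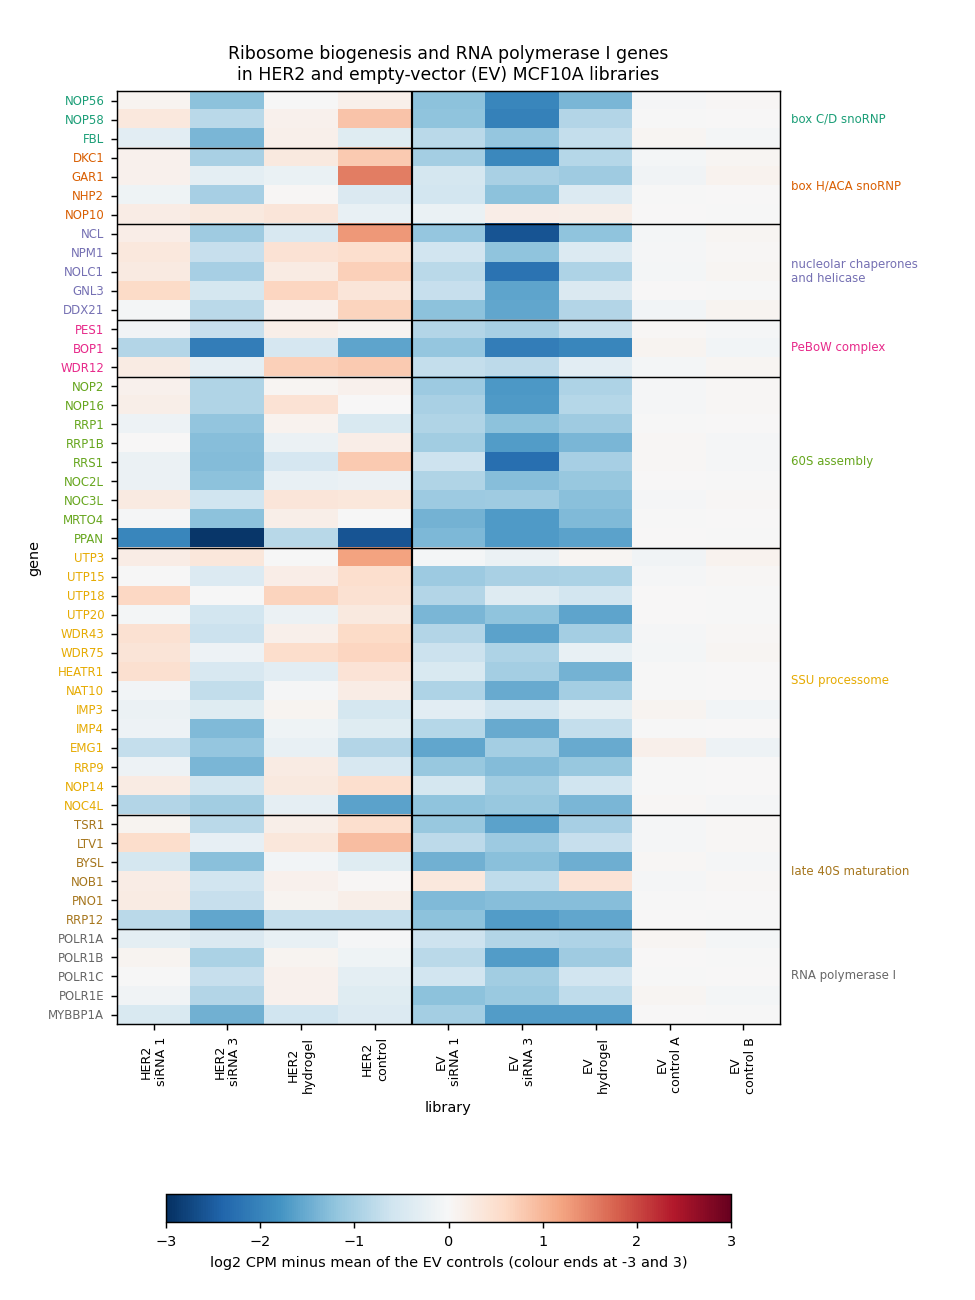
Rows are the 49 genes grouped by role and columns are the 9 libraries, HER2 at left and EV at right; colour is log2 CPM minus the mean of the EV controls. Blue, meaning lower, fills most of the EV columns for either siRNA and the hydrogel, and the HER2 column for siRNA 3, and NOP10 and UTP3 are among the palest rows in EV cells.

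The effect of YAP/TAZ siRNA in EV cells was broad. In the reagent fit 44 of 49 genes were lower at an adjusted p of 0.05 and 0 were higher, where 13.6% of all genes tested were lower. The median log2 fold change was -1.18 in both fits, against 0.02 over all genes in the reagent fit. In 46 genes both siRNA libraries lay below both controls, which held for 30.8% of all genes. The group-means fit in edgeR called 0 of them, with 37 at an unadjusted p under 0.05 and a smallest adjusted p of 0.0732. DESeq2 on the same groups called 28 lower, where it called 7.22% of all genes lower. Without EV control A or B the reagent fit called 10 or 9 of them lower, where 2.36% or 2.26% of all genes were.

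The methylation guides, box C/D snoRNPs, were among the lowest. NOP58, a core protein of these particles, had 130 and 73.6 CPM with siRNA 1 and siRNA 3, against 298 and 306 CPM in the EV controls. Both siRNA libraries lay below both controls, and siRNA 3 lay lower than siRNA 1. The log2 fold change was -1.57 ± 0.45 (SE; edgeR adjusted p = 0.141), and adjusted p = 0.00631 in the reagent fit. NOP56, its partner in the particle, had 152 and 92.8 CPM, against 352 and 365 CPM. FBL, the fibrillarin methyltransferase itself, had 81.4 and 63.9 CPM, against 147 and 138 CPM, the smallest difference of the 3.

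The pseudouridylation particles, box H/ACA snoRNPs, were split. DKC1, the pseudouridine synthase dyskerin, had 97.1 and 50.9 CPM with siRNA 1 and siRNA 3, against 187 and 204 CPM in EV controls. Its log2 fold change was -1.40 ± 0.46 (SE; group-means fit), and the edgeR adjusted p in the reagent fit was 0.00631. NOP10, a subunit of the same particle, had 110 and 143 CPM, against 127 and 124 CPM, so that the groups overlapped. Its log2 fold change was 0.01 ± 0.20 (SE; group-means fit), with a 95% interval of -0.63 to 0.65. The interval was computed with 3 residual degrees of freedom and is not part of the quasi-likelihood test. GAR1 and NHP2, the remaining subunits, were lower in the reagent fit.

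All 5 nucleolar chaperones and helicases were lower in the reagent fit. NCL, or nucleolin, an abundant RNA-binding protein of the nucleolus, had 363 and 136 CPM with siRNA 1 and siRNA 3, against 785 and 848 CPM in EV controls. This was the lowest log2 fold change of the 49 genes, at -1.71 ± 0.59 (SE; edgeR adjusted p = 0.181), and adjusted p = 0.00541 in the reagent fit. NPM1 had 813 and 522 CPM, against 1181 and 1223 CPM, the highest log2 fold change of the 5 genes at -0.85 ± 0.39. DDX21, a helicase that acts on RNA polymerase I transcripts, had 405 and 320 CPM, against 895 and 994 CPM.

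Factors of the 60S subunit moved together. All 3 genes of the PeBoW complex, which is needed to process the large ribosomal RNAs, and all 9 other 60S factors were lower in the reagent fit. BOP1, a scaffold of PeBoW, had 16.6 and 8.82 CPM with siRNA 1 and siRNA 3, against 39.0 and 35.1 CPM in EV controls. WDR12, its WD-repeat partner, had the smallest difference of that complex, with 70.1 and 66.5 CPM, against 111 and 119 CPM. MRTO4, which helps build the ribosomal stalk, had 63.5 and 52.5 CPM, against 169 and 171 CPM. Its log2 fold change was -1.55 ± 0.39 (SE; group-means fit), and the edgeR adjusted p in the reagent fit was 0.0138. RRP1, at 34.6 and 27.6 CPM, against 64.5 and 65.2 CPM, had the smallest difference among the 9.

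Of 14 genes of the SSU processome, which assembles around the precursor of 18S ribosomal RNA, 11 were lower in the reagent fit. UTP20, a large scaffold of this particle, had 65.6 and 73.4 CPM with siRNA 1 and siRNA 3, against 169 and 169 CPM in EV controls, so that both reagents gave similar levels (log2 fold change -1.28 ± 0.22 SE; edgeR adjusted p = 0.0739, and 0.0123 in the reagent fit). NOC4L, which joins the processome with NOP14, had the smallest group-means p of the module, at 14.4 and 15.1 CPM, against 34.5 and 32.5 CPM (log2 fold change -1.18 ± 0.20; edgeR adjusted p = 0.0732, and 0.00979 in the reagent fit). UTP3 had 25.9 and 23.7 CPM, against 24.8 and 28.9 CPM, and overlapped the controls (log2 fold change -0.12 ± 0.20). The other 2 that did not pass were UTP18 (edgeR adjusted p = 0.155 in the reagent fit) and IMP3 (adjusted p = 0.0517), both named after their values were seen.

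Late 40S maturation gave 5 of 6 lower genes. RRP12, an export factor, had 35.3 and 25.8 CPM with siRNA 1 and siRNA 3, against 83.4 and 81.9 CPM in EV controls. Its log2 fold change was -1.44 ± 0.32 (SE; group-means fit), and the edgeR adjusted p in the reagent fit was 0.00701. NOB1, the endonuclease that makes the 3' end of 18S ribosomal RNA, was the exception. It had 84.2 CPM with siRNA 1, above both controls at 66.6 and 69.5 CPM, and 40.1 CPM with siRNA 3, below both.

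All 5 RNA polymerase I genes were lower in the reagent fit. POLR1B, the second-largest subunit, had 90.7 and 49.1 CPM with siRNA 1 and siRNA 3, against 158 and 157 CPM in EV controls. Its log2 fold change was -1.17 ± 0.44 (SE; group-means fit), and the edgeR adjusted p in the reagent fit was 0.00666. MYBBP1A, a nucleolar partner of the polymerase, had 71.2 and 45.2 CPM, against 145 and 144 CPM, the lowest of the 5 in log2 fold change. POLR1A, at 45.5 and 38.4 CPM, against 73.0 and 68.2 CPM, was the highest.

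Because the genes moved together, their promoters were read from RefSeq sequence of GRCh38.p14, in windows from 250 bases before to 50 bases after each listed gene start. Of the 49 genes, 42 had at least 1 window. BOP1, NOLC1, NOP58, POLR1E, RRP1B, RRP12 and RRS1 had none. The palindromic E-box CACGTG, the site of MYC and MAX, was in a window of 20 of the 42 genes, or 47.6%, and in 8.77% of all 27305 genes with a window. Of the 20 genes with an E-box, 18 were lower with YAP/TAZ siRNA in EV cells in the reagent fit, and of the 22 without, 19 were. Their median log2 fold changes were -1.17 and -1.05. The other motifs searched on both strands were CCGGAAG, an ETS core, in 38.1% of the 42 genes and 12.2% of all genes, the NRF1 palindrome, in 9.52% and 1.52%, and CATTCC, the core of TEAD sites, in 21.4% and 16.7%. TEAD proteins are the DNA-binding partners of YAP and TAZ. A match is a run of letters and not a bound site. The 27305 genes with a window are more than the 16117 tested, and they were not matched to the 49 genes in expression or type.

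The 250 bases before the gene start are shown for the 3 genes with the lowest siRNA log2 fold change in EV cells among those with an E-box there, with the E-box in capitals. They are DDX21 (chr10:68956397-68956646, plus strand), UTP20 (chr12:101279855-101280104, plus strand) and NAT10, the acetyltransferase of 18S ribosomal RNA (chr11:34105379-34105628, plus strand). In each, the E-box lies close to the start.
DDX21: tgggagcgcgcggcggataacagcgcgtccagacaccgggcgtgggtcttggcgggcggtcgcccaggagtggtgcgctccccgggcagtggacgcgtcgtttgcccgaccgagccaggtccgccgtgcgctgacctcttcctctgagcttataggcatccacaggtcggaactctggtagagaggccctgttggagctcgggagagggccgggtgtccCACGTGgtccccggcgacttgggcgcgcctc
UTP20: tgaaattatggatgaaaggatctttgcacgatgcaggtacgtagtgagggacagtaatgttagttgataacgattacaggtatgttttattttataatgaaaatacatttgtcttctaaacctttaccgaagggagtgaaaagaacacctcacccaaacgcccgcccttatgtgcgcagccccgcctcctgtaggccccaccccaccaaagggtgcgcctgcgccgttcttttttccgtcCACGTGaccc
NAT10: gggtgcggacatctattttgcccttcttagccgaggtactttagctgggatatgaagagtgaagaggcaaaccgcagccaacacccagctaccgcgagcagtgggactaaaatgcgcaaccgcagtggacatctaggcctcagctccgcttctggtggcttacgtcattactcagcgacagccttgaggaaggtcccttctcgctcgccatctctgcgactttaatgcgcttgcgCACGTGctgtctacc

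NOP10, whose level with YAP/TAZ siRNA overlapped the controls, has E-boxes too, and short stretches around the E-box (capitals) allow a comparison with genes that were lower. The stretches are on the gene's strand, at chr15:34343132-34343157 and chr15:34343291-34343316 for NOP10 (minus strand), chr1:19251809-19251834 for MRTO4 (plus strand) and chr3:51941894-51941919 for RRP9, a protein of the U3 snoRNP (minus strand).
NOP10, near the start: aattgacgaaCACGTGacgcggtcgg
NOP10, farther upstream: agggacactcCACGTGttttagcctg
MRTO4: tcttccgccgCACGTGgattcagcgc
RRP9: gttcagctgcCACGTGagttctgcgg
The E-box letters are alike in all 4 and the flanks differ.

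The soft hydrogel gave EV cells a similar picture without any YAP/TAZ siRNA. In the reagent fit 31 of 49 genes were lower on the hydrogel and 0 higher, where 9.95% of all genes were lower, and the median log2 fold change was -0.94. The hydrogel library lay below both plastic controls for 46 genes, which held for 44.2% of all genes. The group-means fit in edgeR called 0, with 15 at an unadjusted p under 0.05, and DESeq2 called 12 lower, where 6.25% of all genes were. Without EV control A or B, and so with fewer residual degrees of freedom, the reagent fit called 0 of them, where 1.08% or 0.944% of all genes were lower.

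BOP1 had the lowest log2 fold change on the hydrogel, with 9.46 CPM, against 39.0 and 35.1 CPM in the EV controls. It was -1.97 ± 0.65 (SE; group-means fit), and the edgeR adjusted p in the reagent fit was 0.013. MYBBP1A had 45.4 CPM, against 145 and 144 CPM (reagent fit, adjusted p = 0.0118). UTP20 had 55.9 CPM, against 169 and 169 CPM (reagent fit, adjusted p = 0.0189). HEATR1, another large scaffold of the SSU processome, had 116 CPM on the hydrogel, against 309 and 311 CPM in the controls. In EV cells with siRNA 1 and siRNA 3 it had 225 and 152 CPM, so it was lower on the hydrogel than with either reagent. NOB1 had 91.1 CPM, against 66.6 and 69.5 CPM in the controls, above both, as it was with siRNA 1. NOP10 had 142 CPM, also above both. UTP3, at 27.7 CPM, lay within the controls.

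The hydrogel and the siRNA libraries of EV cells were set against each other directly. In edgeR 0 genes of the module passed in either fit, with 0 at an unadjusted p under 0.05 in the group-means fit and 13 in the reagent fit, where 2.85% of all genes passed. DESeq2 called 0 of them, where 1.81% of all genes passed. The log2 difference, hydrogel minus siRNA, had a median of 0.17 and ran from -0.71 to 0.69. A p that misses the threshold does not show that the treatments act alike.

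In HER2 cells the median of the module on the hydrogel was close to that in the control. The median log2 difference, hydrogel minus plastic, was -0.07, with 22 genes above 0 and 27 below. In the reagent fit NCL was called lower, where 0.149% of all genes were, and no gene was called without EV control A or B. NCL was not called with GC offsets either (described below; adjusted p = 0.0611, reagent fit, edgeR). It had 588 CPM on the hydrogel, against 2026 CPM in the HER2 control (log2 fold change -1.78 ± 0.83 SE; edgeR adjusted p = 0.553, and 0.046 in the reagent fit). The group-means fit in edgeR called 0, with 3 at an unadjusted p under 0.05. DESeq2 called GAR1 and UTP3 lower and NOC4L higher, where it called 1.04% of all genes lower and 0.906% higher. GAR1 had 9.18 CPM on the hydrogel, against 30.6 CPM in the HER2 control, and UTP3 had 26.5 CPM, against 61.4 CPM. NOC4L had 27.8 CPM, against 11.1 CPM, and BOP1 25.9 CPM, against 12.3 CPM. The HER2 control is a single library, the least deeply sequenced of the 9.

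YAP/TAZ siRNA in HER2 cells had a smaller median difference, and the reagents differed. The median log2 fold change was -0.44 in the group-means fit and -0.50 in the reagent fit. Both siRNA libraries lay below the control for 28 genes, or 57.1%, which held for 29.9% of all genes. In the reagent fit 7 genes were lower, NOP58, DKC1, GAR1, NCL, NOLC1, DDX21 and RRS1, where 2.04% of all genes were lower, and 0 remained without EV control A or B. The group-means fit in edgeR called 0, with 5 at an unadjusted p under 0.05, and DESeq2 called GAR1 and UTP3 lower, where 1.09% of all genes were.

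NCL had 932 and 387 CPM in HER2 cells with siRNA 1 and siRNA 3, against 2026 CPM in the control. Its log2 fold change was -1.62 ± 0.67 (SE; group-means fit), and the edgeR adjusted p in the reagent fit was 0.022. GAR1 had 11.5 and 8.60 CPM, against 30.6 CPM (reagent fit, adjusted p = 0.0377). RRS1, which brings the 5S RNP into the 60S precursor, had 27.4 and 12.5 CPM, against 54.0 CPM (reagent fit, adjusted p = 0.0403). NOP56 shows the split between reagents, with 380 CPM with siRNA 1 and 152 CPM with siRNA 3, against 402 CPM. POLR1B did likewise, with 168 and 81.4 CPM, against 144 CPM, so siRNA 1 lay above the control and siRNA 3 below it. NOC4L was above the control with both, at 18.1 and 16.2 CPM, against 11.1 CPM.

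**Figure D3:**
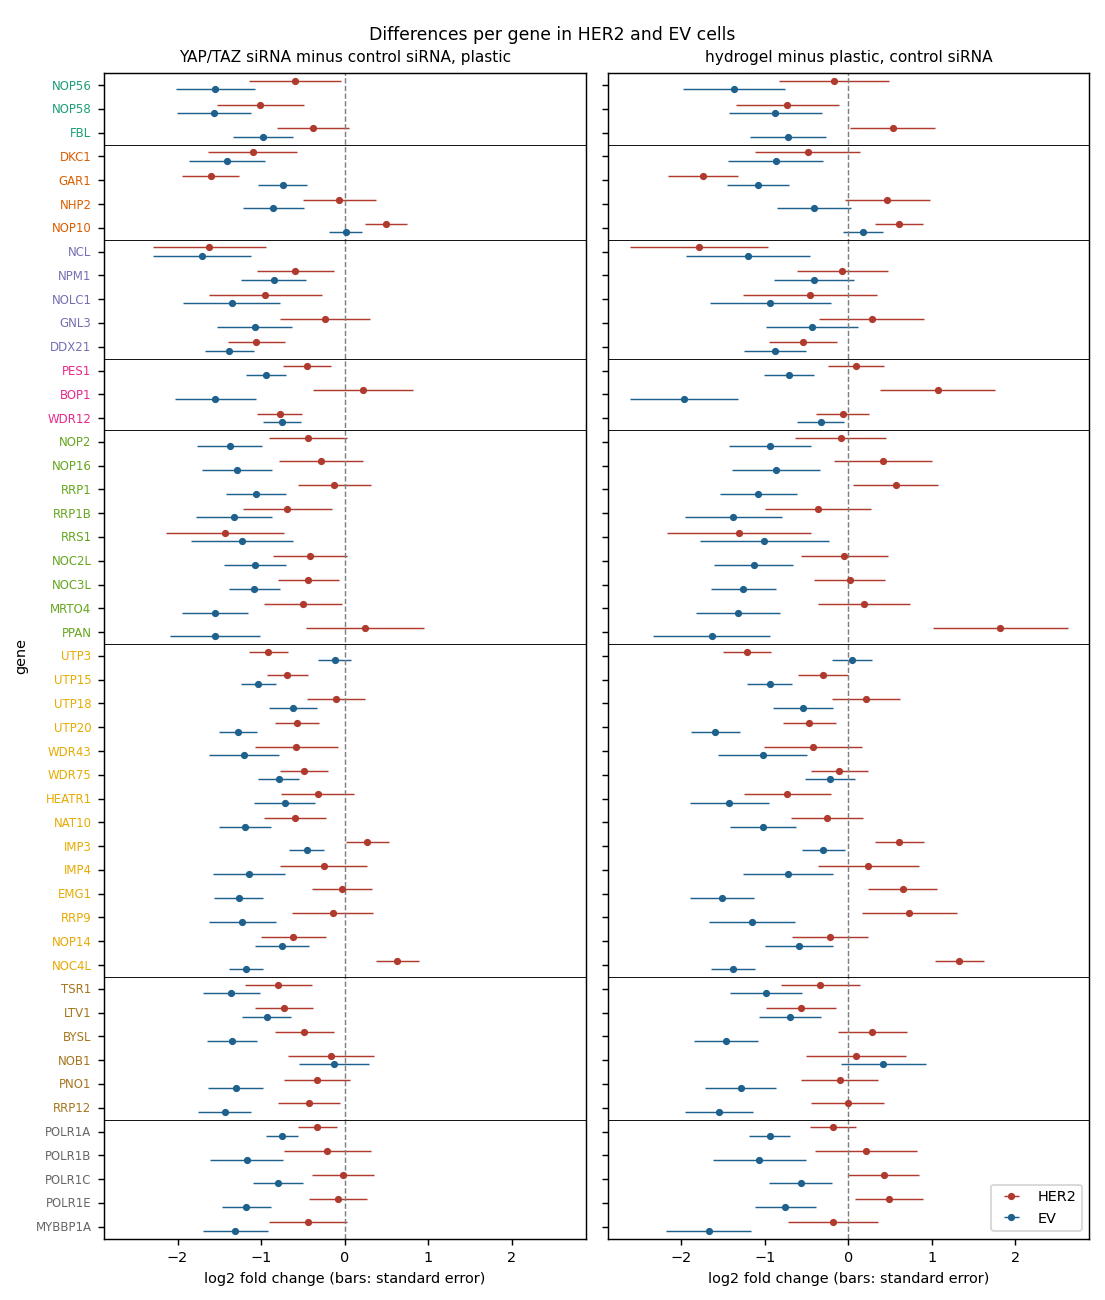
Log2 fold changes of the 49 genes with their standard errors from the group-means fit, for YAP/TAZ siRNA against control siRNA (left panel) and hydrogel against plastic (right panel), with HER2 cells in red and EV cells in blue. In the right panel the EV points lie left of 0 for 46 genes, while the HER2 points scatter around a median of -0.07.

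The difference between the lines in these responses was tested itself. The hydrogel effect in HER2 cells minus that in EV cells had a median of 0.84 on the log2 scale, with 44 of 49 genes above 0, where 48.7% of all genes were. In edgeR 0 genes passed in either fit, as was the case for all 16117 genes, with 9 of the module at an unadjusted p under 0.05 in the group-means fit and 33 in the reagent fit. The smallest adjusted p of the module was 0.0709 in the reagent fit. DESeq2 called NOC4L (log2 difference 2.65 ± 0.42, adjusted p = 1.17e-06) and EMG1, the 18S methyltransferase (2.11 ± 0.64, adjusted p = 0.0354), where 1.87% of all genes were called higher. For YAP/TAZ siRNA the median difference was 0.64, edgeR called 0 genes in either fit, with 3 at an unadjusted p under 0.05 in the group-means fit and 24 in the reagent fit, and DESeq2 called NOC4L, where 0.168% of all genes were called higher. Within siRNA 1 the siRNA difference in HER2 cells minus that in EV cells had a median of 0.86, with 45 of 49 genes above 0, and within siRNA 3 a median of 0.37, with 43 above 0. Leaving out HER2 siRNA 1 sets HER2 siRNA 3 against both reagents in EV cells, and the median was then 0.18. These differences share the single HER2 control, and the GC relation given below applies to them. The counts at an unadjusted p and the counts above 0 within each siRNA were not set against all genes. They do not by themselves show a difference between the lines or set the module apart.

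Over both lines, YAP/TAZ siRNA gave 40 lower and 0 higher genes in the reagent fit, where 15% of all genes were lower, with a median log2 fold change of -0.77. In edgeR's group-means fit 0 passed, with 31 at an unadjusted p under 0.05. DESeq2 called 25 lower, where 8.22% of all genes were. Without EV control A or B the reagent fit called 23 or 22 lower, where 4.77% or 4.49% of all genes were, and 22 were called in all 3 of these fits. For the hydrogel over both lines the reagent fit called 18 lower and 0 higher, where 7.04% of all genes were lower, and 1 without either control. The median was -0.56. In edgeR's group-means fit 0 passed, with 10 at an unadjusted p under 0.05, and DESeq2 called GAR1, UTP20 and HEATR1 lower, where 4.35% of all genes were.

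The siRNA reagents differed in the size of the effect on the module, siRNA 3 giving lower levels. By the reagent fit 24 genes were lower with siRNA 3 than with siRNA 1 and 0 were higher, where 9.36% of all genes were lower, and the median log2 difference was -0.68. Without EV control A or B this count was 5, where 2.86% or 2.84% of all genes were lower. DESeq2 called 31 lower, where 13.3% of all genes were. Levels were lower with siRNA 3 in both lines for 38 of 49 genes, which held for 34.9% of all genes. NCL (log2 difference -1.34 ± 0.11 SE; edgeR adjusted p = 0.00724), RRS1 (-1.39 ± 0.17, adjusted p = 0.0135) and NOLC1, a snoRNP chaperone (-1.33 ± 0.11, adjusted p = 0.00724), differed most. UTP15, UTP18, UTP20, UTP3, NOC4L and EMG1 were within 0.16 of 0 in this term, which both lines share. Each of them went in opposite directions in EV and HER2 cells, so this does not show equal levels with the reagents. UTP18, for example, had 38.7 and 54.2 CPM in EV cells with siRNA 1 and siRNA 3, and 109 and 71.0 CPM in HER2 cells. YAP1 and WWTR1 transcripts were no lower with siRNA 3 than with siRNA 1 in either line, as given above. MYC was lower with siRNA 3, at 120 against 221 CPM in HER2 and 67.6 against 246 CPM in EV cells (log2 difference -1.37, adjusted p = 0.026).

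HER2 cells were compared with EV cells under each condition. With YAP/TAZ siRNA, 29 genes were higher in HER2 cells and 0 lower in the reagent fit, where 15.4% of all genes were higher, and the median log2 fold change was 0.70 there and 0.75 in the group-means fit. On the hydrogel 34 were higher and 0 lower, where 11% of all genes were higher, with a median of 1.04. In the plastic controls 11 were higher, where 9.08% of all genes were, and 4 lower, where 13.2% were, with a median of 0.16. The group-means fit in edgeR called 0 of the 49 in each of these, with 17, 13 and 7 at an unadjusted p under 0.05, in the same order. DESeq2 called 14 higher with siRNA, where 9.52% of all genes were, and 8 on the hydrogel, where 6.45% were. In the plastic controls it called 2 higher and 2 lower, where 4.88% and 9.53% were. With EV control A or B left out, the reagent fit called 14 with siRNA, where 5.63% or 5.58% of all genes were higher, and 7 on the hydrogel, where 4.17% or 4.11% were. In the plastic controls it called 0 without A, where 0.869% of all genes were higher and 2.27% lower, and 1 higher without B, where 1.01% were higher and 2.84% lower.

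On the hydrogel, NOC3L, a 60S assembly factor, had the largest log2 fold change between lines, with 191 CPM in HER2 and 62.4 CPM in EV cells. It was 1.61 ± 0.44 (SE; group-means fit), and the edgeR adjusted p in the reagent fit was 0.0263. MRTO4 had 191 CPM in HER2 and 68.0 CPM in EV cells, and NOP56 357 and 139 CPM (reagent fit, adjusted p = 0.0208). NOB1 and UTP3 had log2 fold changes below 0 there, with NOB1 at 74.4 CPM in HER2 and 91.1 CPM in EV cells. With YAP/TAZ siRNA, NOP58 had 374 and 171 CPM in HER2 and 130 and 73.6 CPM in EV cells with siRNA 1 and siRNA 3. Its log2 fold change was 1.42 ± 0.44 (SE; group-means fit), and the edgeR adjusted p in the reagent fit was 0.00361. The lower level in HER2, with siRNA 3, still exceeded the higher level in EV, with siRNA 1. Such separation held for 26 of 49 genes and for 23.3% of all genes.

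In the plastic controls the genes spread widely between the lines around their median of 0.16. GAR1 had 30.6 CPM in the HER2 control, against 9.79 and 11.2 CPM in the EV controls. Its log2 fold change was 1.54 ± 0.34 (SE; group-means fit), and the edgeR adjusted p in the reagent fit was 0.0115. NCL had 2026 CPM, against 785 and 848 CPM (reagent fit, adjusted p = 0.00708). UTP3 had 61.4 CPM, against 24.8 and 28.9 CPM (reagent fit, adjusted p = 0.0146). At the other end NOC4L had 11.1 CPM, against 34.5 and 32.5 CPM (log2 fold change -1.60 ± 0.27; adjusted p = 0.061, and 0.0105 in the reagent fit), and BOP1 had 12.3 CPM, against 39.0 and 35.1 CPM. PPAN rested on 10 counts in the HER2 control, or 0.44 CPM, against 2.82 and 2.79 CPM. The standard deviation of the log2 fold changes over the 49 genes was 0.76 here, 0.38 on the hydrogel and 0.42 with siRNA.

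These differences ran with the GC content of the transcripts. GC of the longest coding transcript ran from 37.7% to 65.2% over the 49 genes, with a median of 51.1%. Across the genes, Spearman's rho between GC and the log2 fold change of HER2 against EV was -0.73 in the plastic controls, -0.62 with siRNA and -0.10 on the hydrogel. Over all genes tested it was -0.47, -0.35 and -0.15. The points share libraries, so these are descriptions. In the plastic controls the median was -0.36 for the 24 genes of higher GC and 0.49 for the 25 of lower GC. With per-library offsets fitted to GC, the median in the plastic controls was 0.33, with 38 of 49 genes above 0, where 49.9% of all genes were. With these offsets the reagent fit called 8 genes higher and 0 lower in the plastic controls, 35 higher with siRNA and 39 higher on the hydrogel. Of all genes, 6.35%, 14.3% and 12.8% were higher, in the same order. For YAP/TAZ siRNA and for the hydrogel in EV cells rho was -0.21 and -0.28, and the offsets left 45 and 31 genes lower, where 13.3% and 8.91% of all genes were. For the hydrogel in HER2 cells rho was 0.54, and for the difference between lines in the hydrogel effect 0.58. Whether GC gives rise to the differences that share the HER2 control was not tested.

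**Figure D4:**
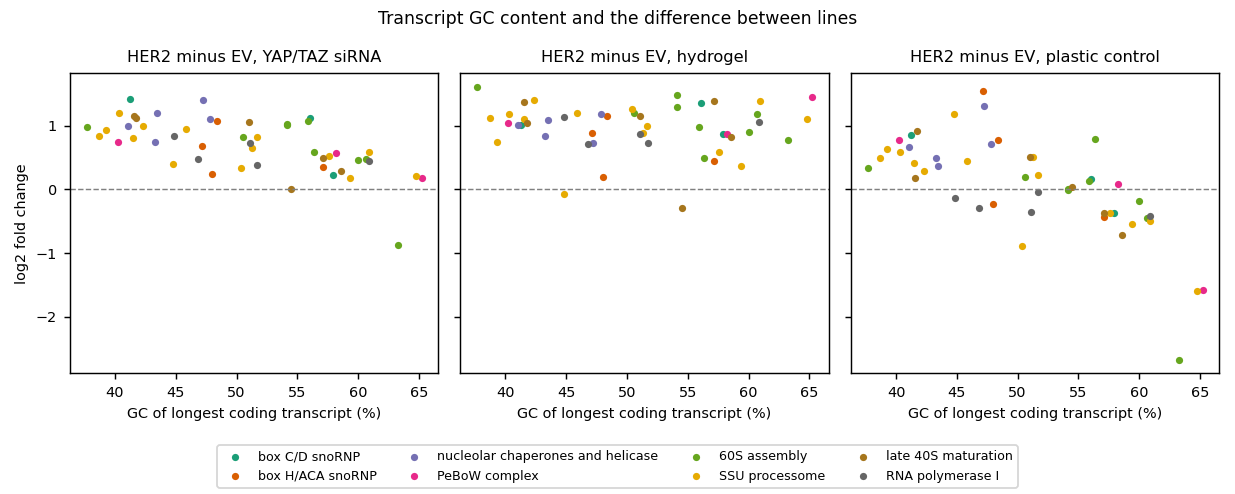
Each point is 1 of the 49 genes, coloured by role, with the GC content of its longest coding transcript in percent against the log2 fold change of HER2 against EV cells with YAP/TAZ siRNA, on the hydrogel and in the plastic controls. In the plastic controls the points slope downward (Spearman's rho -0.73), and on the hydrogel they lie around 1.04 with little slope (rho -0.10).

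Other genes of RNA polymerase I went partly the same way. Of 15 further genes of its machinery, 6 were lower and 0 higher with YAP/TAZ siRNA in EV cells in the reagent fit, where 13.6% of all genes were lower and 12.1% higher, and 5 were lower and 1 higher on the hydrogel, where 9.95% of all genes were lower and 10.2% higher. None of the 15 was called in either comparison without EV control A or B. CD3EAP, a subunit of the polymerase, had 39.1 and 39.8 CPM with siRNA 1 and siRNA 3 and 30.0 CPM on the hydrogel, against 108 and 113 CPM in the EV controls (edgeR adjusted p = 0.0138 with siRNA and 0.0205 on the hydrogel, reagent fit). In HER2 cells CD3EAP had 91.7 and 52.2 CPM with siRNA and 76.6 CPM on the hydrogel, against 126 CPM. RRN3, the factor that couples the polymerase to growth signals, had 58.8 and 42.1 CPM with siRNA and 57.3 CPM on the hydrogel, against 96.5 and 93.5 CPM (adjusted p = 0.00972 and 0.0305, reagent fit). UBTF, which binds ribosomal DNA, had 80.8 and 79.4 CPM with siRNA, against 115 and 113 CPM (adjusted p = 0.0491, reagent fit). POLR1D, shared with RNA polymerase III, was the gene higher on the hydrogel, with 121 CPM, against 84.9 and 81.9 CPM (adjusted p = 0.0428, reagent fit). TWISTNB and ZNRD1, also subunits, did not pass with siRNA in EV cells (adjusted p = 0.0673 and 0.0619, reagent fit).

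In the MYC network of 10 genes, 3 were higher and 2 lower with YAP/TAZ siRNA in EV cells in the reagent fit, where 12.1% of all genes were higher and 13.6% lower, and 2 were higher and 1 lower on the hydrogel, where 10.2% and 9.95% were. With siRNA 1 of them, MXD4, was still higher without EV control A (adjusted p = 0.0467) and none without B, and on the hydrogel none without either. MYC itself had 246 and 67.6 CPM with siRNA 1 and siRNA 3 and 193 CPM on the hydrogel, against 276 and 280 CPM in the EV controls (edgeR adjusted p = 0.0327 with siRNA and 0.257 on the hydrogel, reagent fit). The module's median gene in EV cells was at 53.3% of the EV controls with siRNA 1 and 42.0% with siRNA 3. The part of MYC in the module's levels was not tested. In HER2 cells MYC had 221 and 120 CPM with siRNA and 195 CPM on the hydrogel, against 171 CPM. MXD4, which opposes MYC, had 108 and 62.5 CPM with siRNA and 77.7 CPM on the hydrogel, against 29.9 and 29.02 CPM (adjusted p = 0.0077 and 0.0164, reagent fit). In HER2 cells it had 63.5 and 50.9 CPM with siRNA, against 21.9 CPM (adjusted p = 0.0425, reagent fit, and 0.147 or 0.149 without EV control A or B), and 38.3 CPM on the hydrogel. MXD1 had 66.0 and 38.2 CPM with siRNA and 68.9 CPM on the hydrogel, against 27.1 and 26.2 CPM, and did not pass (adjusted p = 0.139 and 0.1, reagent fit). MXI1, of the same family and named after its values were seen, had 90.7 and 56.3 CPM with siRNA and 131 CPM on the hydrogel, against 21.4 and 22.3 CPM (adjusted p = 0.039 and 0.0284, reagent fit). MXD3, also named after its values were seen, went the other way, at 1.05 and 1.099 CPM with siRNA and 1.15 CPM on the hydrogel, against 7.19 and 5.87 CPM. MAX was higher with siRNA (log2 fold change 0.40; adjusted p = 0.0468, reagent fit), and MNT did not pass (adjusted p = 0.74, reagent fit).

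**Figure D5:**
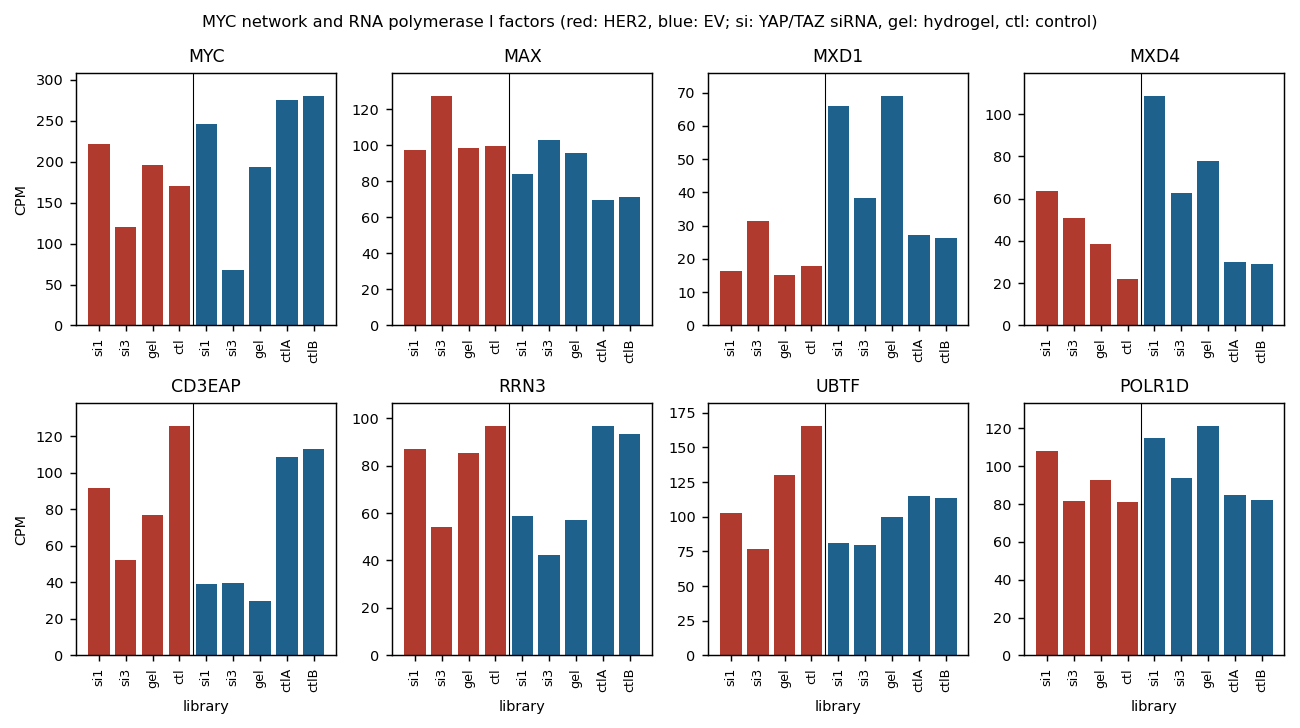
Bars are CPM of 8 genes in each library, with HER2 cells in red and EV cells in blue; si1 and si3 are YAP/TAZ siRNA 1 and siRNA 3, gel is the hydrogel and ctl the control. MXD4 is higher in the siRNA and hydrogel bars than in the controls of both lines, while CD3EAP and RRN3 are lower there in EV cells.

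The counts that follow are from the reagent fit (edgeR) in EV cells, where 13.6% of all genes were lower with YAP/TAZ siRNA and 9.95% on the hydrogel. There, 48 of 62 further ribosome biogenesis factors and 14 of 18 genes of nucleotide synthesis were lower with siRNA and 0 of either were higher. On the hydrogel 23 of 62, with 1 higher, and 11 of 18 were lower. Of 21 RNA polymerase III genes 12 were lower with siRNA and 6 lower and 1 higher on the hydrogel, and of 14 exosome genes 7 and 2. Of 75 cytosolic ribosomal protein genes 6 were lower and 3 higher with siRNA, and 3 lower and 18 higher on the hydrogel, where 12.1% and 10.2% of all genes were higher. With EV control A or B left out, the siRNA counts of lower genes were 4 or 5 of the 62 factors, 6 or 4 of the 18 nucleotide synthesis genes, 1 or 0 for RNA polymerase III, 1 or 1 for the exosome and 0 for ribosomal proteins. On the hydrogel 1 nucleotide synthesis gene was lower without either, and 1 ribosomal protein gene was higher without B. The median log2 fold change of the ribosomal protein genes was 0.02 with siRNA and 0.24 on the hydrogel. MKI67, a proliferation marker, was at lower levels with siRNA and on the hydrogel in both lines. It had 34.2 and 13.7 CPM with siRNA 1 and siRNA 3 and 41.3 CPM on the hydrogel, against 248 and 259 CPM in the EV controls, and 318 and 96.2 CPM with siRNA and 284 CPM on the hydrogel, against 903 CPM, in HER2 cells. Relative to the EV controls, the module's median gene in HER2 cells was at 101% with siRNA 1 and 56.7% with siRNA 3. It was at 108% on the hydrogel and 112% in the HER2 control. MKI67 lay above both EV controls in these HER2 libraries except that with siRNA 3. The part of proliferation in the module's levels was not tested.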

How the data were processed

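RNA-seq libraries of MCF10A cells were made from total RNA with ribosomal RNA removed, per the labels' protocols. Raw read counts per gene were deposited by the authors as whole numbers, not normalized. Reads had been processed with STAR 2.5.3a, featureCounts and edgeR on hg19, per the submitters' processing notes; strand use in counting is not given in the sources used here. The 49 genes, their roles and all other lists were chosen with earlier results of these data known.

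From the counts, 1 row without a symbol (0 counts) was left out. Genes were filtered with edgeR 4.0.16 (filterByExpr, minimum count 10) and scaled by TMM, and 14 comparisons over 6 groups were tested with the quasi-likelihood test, with Benjamini-Hochberg adjustment over all 16117 genes. The design's main model had group means. The siRNA numbers name reagents, so pairing was judged by the reagent. Across all genes the difference of siRNA 3 and siRNA 1 had r = 0.415 between EV and HER2 cells, so the reagent term is given beside each result. DESeq2 1.42.0, other scalings, no filter and leaving out each replicate were alternatives. GC offsets, alone or with the reagent term, and the snoRNA lists were added after the data were seen. The scripts were tested on simulated data. Total counts of 24425556 to 78945981 set the precision, and intervals cover the spread modelled here. Named genes were, per comparison, the highest and lowest log2 fold change of each role, the 5 most extreme in either direction, and a fixed set of regulators; others are named as chosen after their values were seen, or to show all libraries of a gene. GC and length come from the longest coding transcript in GENCODE release 29. Promoter windows come from RefSeq, which gave at least 1 for 42 of the 49 genes, and are not on the build of the counts.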

Additional observations from a re-analysis of the deposited data

How the results depend on the processing

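Counts of genes called are given over all genes and, where any were called, over the 49 genes. With the replicate block (the reagent term) they were 3597 for HER2 against EV on plastic (11 members higher, 4 lower), 4137 on the hydrogel (34 higher) and 5293 with siRNA (29 higher). They were 3254 for the hydrogel in EV cells (31 lower), 30 in HER2 cells (1 lower) and 2241 over both lines (18 lower). For siRNA they were 4139 in EV (44 lower), 683 in HER2 (7 lower) and 4754 over both (40 lower), and for hydrogel against siRNA 459 in EV and 10 in HER2. With GC offsets and the replicate block the same comparisons gave 1894 (8 higher), 4151 (39), 4315 (35), 3063 (31 lower), 0 for the hydrogel in HER2 cells, where NCL was no longer called, then for siRNA 4148 (45), 309 (7) and 4662 (43), for the hydrogel over both lines 2009 (19), and for hydrogel against siRNA 377 and 8. With GC offsets alone HER2 against EV gave 58 on plastic and 597 with siRNA.

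DESeq2 called 2322 genes for HER2 against EV on plastic (2 higher, 2 lower), 2732 on the hydrogel (8) and 3401 with siRNA (14). It called 1872 for the hydrogel in EV (12 lower), 313 in HER2 (1 higher, 2 lower) and 1291 over both (3 lower). For siRNA it called 2317 in EV (28), 536 in HER2 (2) and 2979 over both (25), and 292 and 284 for hydrogel against siRNA in EV and HER2. For the difference between lines it called 500 (2 higher) for the hydrogel and 34 (1 higher) for siRNA. RLE size factors gave 1 gene for siRNA in EV, and upper-quartile scaling 1 there and 3 for the hydrogel in EV. With no filter the counts were 400 and 788 for HER2 on plastic and the hydrogel, 9 and 15 for the hydrogel in EV and over both, and 475 (1 member lower) and 661 (4) for siRNA in EV and over both.

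In the reagent fit without EV control A or B, the genes called were 502 or 617 for HER2 on plastic (0 or 1 higher), 1876 or 1857 on the hydrogel (7 each) and 2394 or 2383 with siRNA (14 each), 344 or 308 for the hydrogel in EV, 286 or 262 over both (1 each), 558 or 525 for siRNA in EV (10 or 9), 1448 or 1352 over both (23 or 22), and 76 or 75 and 3 or 3 for hydrogel against siRNA in EV and HER2.

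Leaving out 1 replicate in the group-means fit gave 0 to 1011 genes for HER2 on plastic (up to 1 member higher and 1 lower), 1 to 1918 on the hydrogel (up to 10) and 79 to 2406 with siRNA (up to 18). It gave up to 638 for the hydrogel in EV (6 members), up to 1431 for siRNA in EV (21) and up to 2496 over both lines (3 to 32). For siRNA 3 against siRNA 1, leaving out 1 replicate in the reagent fit gave 706 to 9237 genes. In these fits 5 to 43 members were lower and up to 4 higher. The medians that follow are from the group-means fit without HER2 siRNA 1 or siRNA 3. The member median log2 fold change was 0.28 or 1.07 for HER2 with siRNA, and -0.91 or -0.065 for siRNA in HER2. It was 0.18 or 1.02 for the difference between lines in the siRNA effect, and 0.93 or 0.083 for hydrogel against siRNA in HER2. Reversed single genes were RRP1 (0.40) and IMP3 (0.19) for HER2 on plastic with GC offsets and the replicate block, RRP9 for HER2 with siRNA (-0.17 without HER2 siRNA 1, 1.08 without HER2 siRNA 3), and BYSL and POLR1E for siRNA 3 against siRNA 1, at 0.23 and 0.14 without HER2 siRNA 1, 0.20 and 0.11 without HER2 siRNA 3, and as low as -0.76 and -0.80 when an EV siRNA library was left out. No scaling moved the median of all genes by over 0.1. The cause of each change was not tested. Limits are the HER2 control, the least deeply sequenced library, 3 groups of 1 library, and genes as low as PPAN.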

Other observations

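Small nucleolar RNA entries, chosen after the data were seen, had medians below those of the EV controls in all siRNA and hydrogel libraries of both lines, including HER2 cells with siRNA 1 and on the hydrogel, where the module's median gene was at 101% and 108%. Of 264 entries for box C/D snoRNAs (SNORD), 117 were tested, and of 106 for box H/ACA snoRNAs (SNORA), 72. The median log2 level relative to the EV controls over SNORD entries was 0.05 in the HER2 control, -0.78 and -1.94 in HER2 cells with siRNA 1 and siRNA 3, and -0.46 on the hydrogel. In EV cells it was -1.19 and -2.13 with siRNA 1 and siRNA 3 and -1.50 on the hydrogel. Over SNORA entries it was -0.06 in the HER2 control, -0.91 and -1.86 in HER2 cells with siRNA 1 and siRNA 3, and -0.71 on the hydrogel, and in EV cells -0.98 and -1.68 with the reagents and -1.61 on the hydrogel. The EV controls lay within 0.04 of 0 for SNORD and 0.17 for SNORA entries. In the reagent fit (edgeR) 36 SNORD and 15 SNORA entries were lower with YAP/TAZ siRNA in EV cells and 0 higher, where 13.6% of all genes were lower. With EV control A or B left out, 4 SNORD and 0 SNORA entries were lower, where 2.36% or 2.26% of all genes were. On the hydrogel in EV cells 19 SNORD entries (16.2%) and 5 SNORA entries (6.94%) were lower, and 0 without either control. With both controls 9.95% of all genes were lower there, so the SNORA share did not exceed that of all genes. Total RNA libraries are not designed to capture such short RNAs, many snoRNAs lie in introns of other genes, and counts of near-identical copies are uncertain. Many entries were near the floor. SNORA49, for example, had 0.141 and 0.0529 CPM in the EV controls and 0 on the hydrogel in both lines. An entry could also pass the filter through a single library. SNORD88C had 0.198 and 0.0264 CPM in the EV controls and 0 in every other library. SNORD116-28 had 0 in the EV controls and 0.263 CPM in the HER2 control. How many entries passed through the EV controls only was not counted, and such entries are low elsewhere by selection. The medians and the counts of lower entries thus depend in part on this selection, on the prior count and on depth.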
